A study of Drosophila melanogaster with 12 samples.

Results

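Translation initiation factors (eIF genes) and elongation factors (eEF genes) were followed in the heads of Drosophila melanogaster. The members were the genes whose current FlyBase symbol starts with eIF or eEF, found through the CG number of each transcript, which gave 52 of the 13783 genes in the table. By role, 16 encode subunits of eIF3, 13 proteins of the eIF4 cap complex, 8 the ternary complex and its exchange factor eIF2B, 7 factors of start codon selection and subunit joining, and 8 elongation factors. Each gene is given by its row with the highest mean; 42 of the 52 members had a mean of at least 10 normalized reads over the 12 libraries and were tested, among 6560 genes.

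The cabut RNAi flies were Canton-S in background and carried the driver Tim-gal4 together with a UAS-cbt RNAi transgene aimed at cabut (cbt), a zinc-finger transcription factor gene; Tim-gal4 drives in cells that express the clock gene timeless. They gave 8 libraries, 2 at each of 0, 25, 50 and 100 percent sucrose. The controls, +/cbtE1-UAS-cbt RNAi, had the transgene and no driver, and gave 4 libraries, 1 at each concentration; all flies were labelled 18 h, and the comparison therefore pairs a genotype that carries the driver with one that does not. Libraries were 3' RNA-seq, because RNA was fragmented before poly(A) selection, and held 926359 to 1860498 reads with the cabut RNAi label against 511719 to 1333844 in controls. The cbt RNA was itself not lower under the label (log2 fold change 0.38 ± 0.13 SE, limma adjusted p = 0.0537), so groups are called by their labels. Photoreceptor markers were abundant in all libraries, and the germline markers vas, nanos and osk had 3, 6 and 15 reads in the control library at 100 percent sucrose and 0 reads in the other 11 libraries. Replicates of a group are not said to stem from separate cultures, so each p-value reflects the scatter among these libraries alone, which could be technical.

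As background, translation starts when eIF2 with GTP and the initiator methionyl-tRNA, the ternary complex, joins the small ribosomal subunit with eIF1, eIF1A, eIF3 and eIF5. The eIF4 proteins bind the mRNA's cap, unwind its leader and recruit that subunit, and eIF5B joins the large subunit once the start codon is found. During elongation eEF1alpha carries aminoacyl-tRNA to the ribosome, the eEF1beta, gamma and delta proteins recharge it with GTP, eEF2 moves the ribosome along and eEF5, the fly eIF5A, helps it past slow steps. In vertebrates many mRNAs of elongation factors and ribosomal proteins share a 5' terminal oligopyrimidine start and are translated together under TOR, the nutrient-sensing kinase.

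The first comparison asked which translation factor RNAs differed between the genotypes. Lower RNA in the libraries labelled cabut RNAi was seen for 12 of the 42 tested members, and higher RNA for 0, at a limma adjusted p under 0.05 over all 6560 genes. Among all tested genes 8.7 percent were called lower and 6.78 percent higher, 15.5 percent in either direction. The share called lower rose with level, from 5.11 percent under a mean of 100 normalized reads to 15.1 percent at 100 to 300. At 300 or more it was 40.7 percent. Only 14 of the 42 tested members lay under 100, beside 5347 of the 6560 genes, so 8.7 percent is a low yardstick for them. Elongation factors held most of the large differences, with 6 of 7 tested called lower and a median log2 fold change of -0.58. In eIF3, 4 of 13 were called lower and the median was -0.28. All 13 were below 0 under the deposited scaling, with eIF3l nearest to 0 at -0.06. The eIF4 cap complex had 1 of 7 called lower (median -0.16), the start codon and subunit joining factors 1 of 7 (median -0.08, but 0.03 when libraries were scaled to reads outside ribosomal protein genes), and the ternary complex with eIF2B 0 of 8 (median -0.18). Over all tested members the median was -0.27, beside 0.01 over all tested genes. Fold changes are on the scale of log2(normalized reads + 1), cabut RNAi over control, which understates changes of low genes. They keep the deposited scaling, and scaling to all reads of a library was not tried. As a share of reads the initiation factor genes differed little, with means of 0.653 percent under the cabut RNAi label and 0.677 percent in controls. The size of the initiation medians therefore depends on the scaling.

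The 8 libraries labelled cabut RNAi lay below all 4 controls for 11 of the 42 tested members, against 5.02 percent of all tested genes, and lay above all 4 for 0 members, against 3.16 percent. Of the 42 tested members 20 were lower at all 4 concentrations, beside 15.8 percent of all tested genes. The 12 called members were all among these 20, which the call itself makes likely, since it used the same libraries. The shares of 5.02, 3.16 and 15.8 percent are over genes of all levels and are not matched to the members' levels. Each concentration had 1 control library, so differences at one concentration lack control replicates. In these whole-head extracts fewer cells of a type and less RNA per cell cannot be told apart. Other scalings moved the split of calls, with 9 members lower and 1 higher (eEF1alpha2, 0.24) after quantile normalization, and 10 lower and 2 higher (eEF1alpha2, 0.26, and eIF1, 0.27) after scaling to reads outside cytosolic ribosomal protein genes. That last scaling moved the median of all tested genes to 0.11. The shares of all tested genes called under these scalings are not given here.

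**Figure D1:**
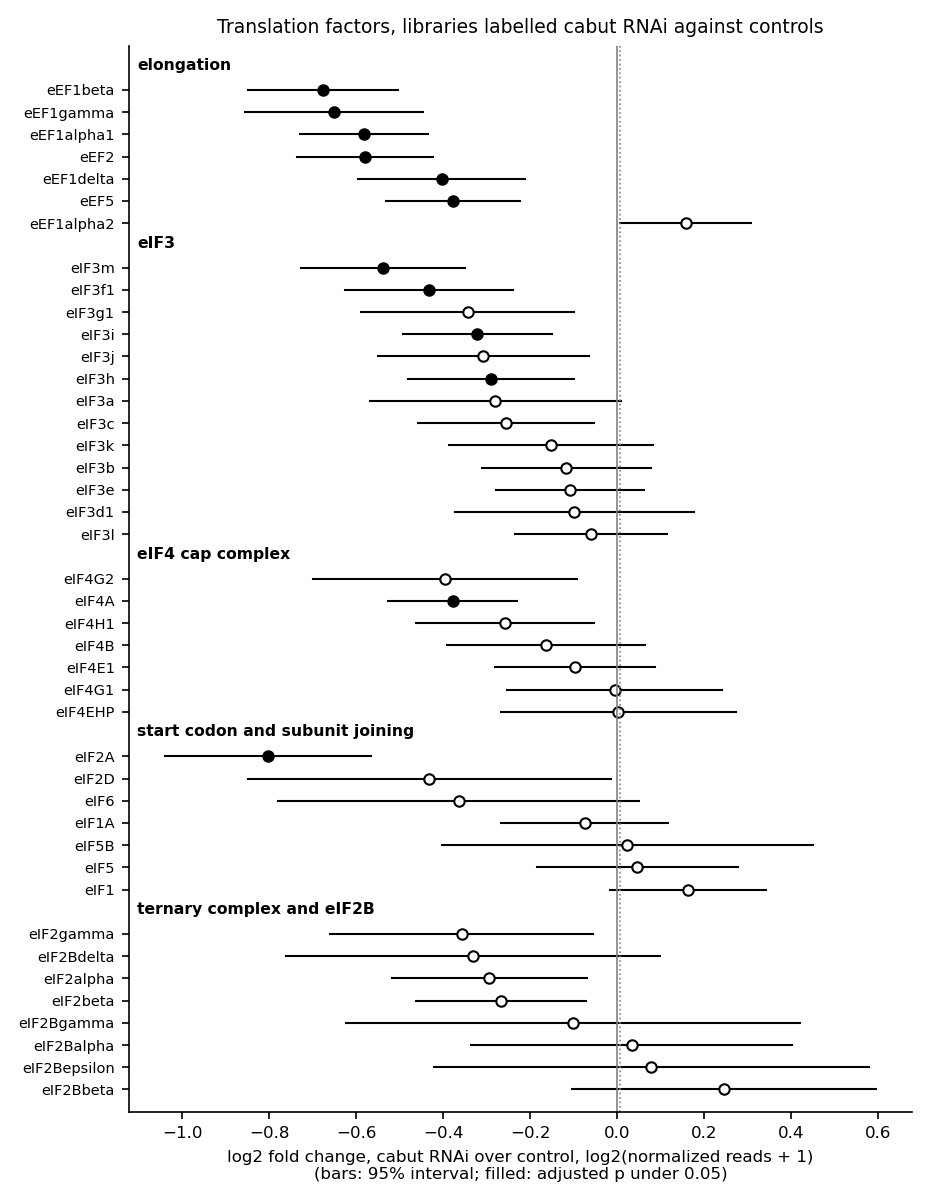
Log2 fold change of the 42 tested translation factors, libraries labelled cabut RNAi (n = 8) over controls (n = 4), grouped by role; points are limma estimates on log2(normalized reads + 1), bars 95% intervals, filled points an adjusted p under 0.05, and the dotted line the median of all tested genes. Filled points number 12, all left of 0, and 6 of them are elongation factors; under quantile normalization or scaling to non-ribosomal reads eEF1alpha2 is called higher.

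The elongation factor with the highest mean was eEF1alpha1 (CG8280, chromosome 2R, 7779597 to 7783116 in build dm3), the carrier of aminoacyl-tRNA. Its level in libraries labelled cabut RNAi ran from 7768 over a median of 8808 to 9979.9 normalized reads, against 12289, 14825, 11479.7 and 13700.4 in the controls at 0, 25, 50 and 100 percent sucrose. The groups did not overlap, and the log2 fold change was -0.58 ± 0.07 SE (limma adjusted p = 7.77e-06). It alone took 0.839 to 1.01 percent of all reads under the cabut RNAi label and 1.07 to 1.32 percent in controls. At the 4 concentrations in rising order the log2 difference was -0.57, -0.75, -0.49 and -0.53.

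All 3 genes of the exchange complex that recharges eEF1alpha were also lower. For eEF1beta (CG6341, chromosome 2R, 12755698 to 12756681) the libraries labelled cabut RNAi ran from 586 over 657 to 742 normalized reads, against 1131, 1076, 1009.6 and 965 in controls at rising sucrose. The lowest control lay well above the highest library labelled cabut RNAi, and the log2 fold change was -0.68 ± 0.08 SE (limma adjusted p = 7.94e-06). For eEF1gamma (CG11901, chromosome 3R, 25045931 to 25047835) the values were 765, 859.9 and 1089 (lowest, median, highest) with the cabut RNAi label and 1491, 1265, 1488 and 1423 in controls. Again the groups were separate, at 1.57-fold lower (log2 -0.65 ± 0.10 SE, limma adjusted p = 7.85e-05). For eEF1delta (CG4912) the gap was narrower, with 141, 160.5 and 176 under the cabut RNAi label and 224, 195, 201 and 219 in controls, log2 -0.40 ± 0.09 SE with a limma adjusted p of 0.00415.

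The translocase eEF2 (CG2238, chromosome 2L, 21678097 to 21682150) held 1519, 1778 and 1983 normalized reads (lowest, median, highest) in the libraries labelled cabut RNAi and 2509, 2819, 2639.8 and 2598 in controls at rising sucrose. No library of one label reached the other, and the log2 fold change was -0.58 ± 0.07 SE (limma adjusted p = 1.48e-05). For eEF5 (CG3186, chromosome 2R, 19945347 to 19947002) they held 1496, 1665 and 1812, against 2122, 2243, 1854 and 2415. Here the control at 50 percent sucrose came closest to the libraries labelled cabut RNAi, and the log2 fold change was -0.38 ± 0.07 SE (limma adjusted p = 0.00107). In the annotation eEF5 overlaps lncRNA:CR44814 on the opposite strand. After quantile normalization 2 of these 6 calls were lost, eEF2 at -0.17 (adjusted p = 0.134) and eEF5 at -0.00 (adjusted p = 0.977).

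The elongation factor that was not lower was eEF1alpha2 (CG1873, chromosome 3R, 27564190 to 27569028), the second gene for the aminoacyl-tRNA carrier. The libraries labelled cabut RNAi held 826, 878 and 985 normalized reads (lowest, median, highest), against 738, 841, 789 and 806 in controls at rising sucrose. They overlapped only at the control with 25 percent sucrose, which exceeded 3 of the 8 libraries labelled cabut RNAi. The log2 fold change was 0.16 ± 0.07 SE and did not pass the test (limma adjusted p = 0.165), although the difference was above 0 at all 4 concentrations.

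Members of 3 related pairs were compared as ratios within each library. Scaling of whole libraries leaves the printed ratios of normalized reads as they are. The log2 differences and permutation tests used normalized reads + 1, so scaling can move them, most for genes with few reads. A difference in ratio follows from the fold changes of both genes in the same libraries. The pairs were also chosen with earlier results known, so the p-values here are not separate support. The eEF1alpha2 to eEF1alpha1 ratio of normalized reads ran from 0.0913 over a median of 0.1 to 0.123 in the libraries labelled cabut RNAi, against 0.0600, 0.0567, 0.0687 and 0.0588 in the controls at rising sucrose. Every library labelled cabut RNAi was above every control, and the log2 ratio was higher by 0.74 (exact permutation of labels within concentration, two-sided p = 0.0123, the smallest that the 81 assignments allow; 0.0370 adjusted over the 3 pairs). For eIF4G2 over eIF4G1 the ratio was 0.32, 0.517 and 0.61 (lowest, median, highest) under the cabut RNAi label and 0.692, 0.564, 0.755 and 0.512 in controls, with a log2 difference of -0.39 (exact permutation p = 0.0617, adjusted 0.0926). For eIF4EHP over eIF4E1 the log2 difference was 0.10 (exact permutation p = 0.63). How reads that match both eEF1alpha genes were assigned is not given in the sources used here, so the split between them is uncertain.

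**Figure D2:**
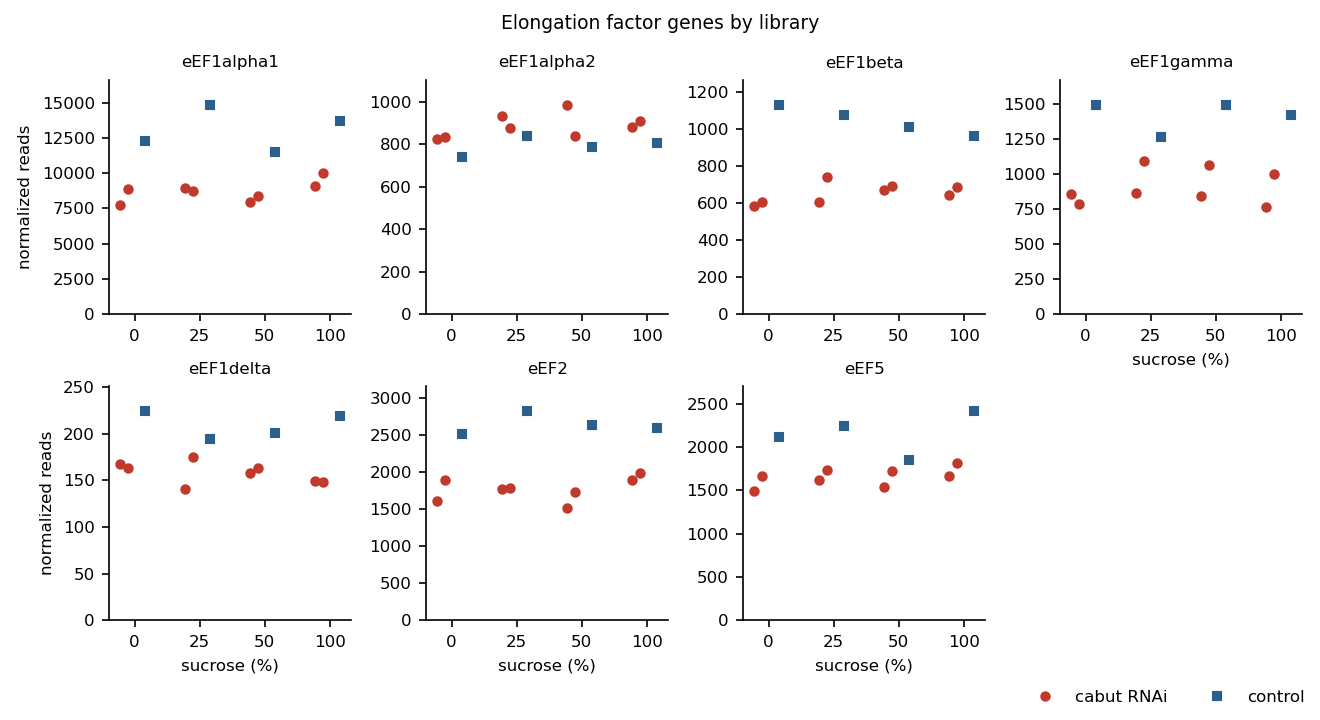
Normalized reads (vertical axes, from 0) of the 7 tested elongation factor genes at 0, 25, 50 and 100 percent sucrose (horizontal axes); circles are single libraries labelled cabut RNAi, 2 per concentration, and squares single control libraries, 1 per concentration. The control stands above both libraries labelled cabut RNAi at every concentration in 6 panels, while for eEF1alpha2 it stands below both.

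Among the eIF3 subunits, the scaffold that holds initiation factors on the small subunit, eIF3m (CG8309, chromosome 2R, 10050571 to 10052374) differed most. Its values were 203, 223 and 263 normalized reads (lowest, median, highest) in the libraries labelled cabut RNAi and 319, 309, 357 and 333 in controls at rising sucrose. There was no overlap, and the log2 fold change was -0.54 ± 0.09 SE (limma adjusted p = 2.45e-04). The subunit eIF3f1 (CG9769, chromosome 3R, 538861 to 539918) held 271, 317 and 358 under the cabut RNAi label and 470.0, 341, 458 and 436 in controls. The control at 25 percent sucrose fell within the range of the libraries labelled cabut RNAi, and the log2 fold change was -0.43 ± 0.09 SE (limma adjusted p = 0.00248).

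The other 2 called subunits also overlapped between labels. For eIF3i (CG8882), the eIF3 subunit with the highest mean, the libraries labelled cabut RNAi held 311, 354 and 412 and the controls 388, 462, 443 and 468, at log2 -0.32 ± 0.08 SE (limma adjusted p = 0.01). For eIF3h (CG9124) they held 194, 217 and 251 and the controls 277, 246, 277 and 282, at log2 -0.29 ± 0.09 SE (limma adjusted p = 0.0362). The eIF3h call was lost in 7 of the 12 fits that left out 1 library, with an adjusted p of up to 0.142 without the control at 0 percent sucrose, and eIF3i was lost without the control at 50 percent (adjusted p = 0.0717). In the annotation eIF3h and eIF3i overlap senju and CG34125 on the opposite strand; whether counting used strand is not given in the sources used here.

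The remaining 9 tested eIF3 subunits did not pass, with log2 fold changes that ran from -0.34 ± 0.12 SE for eIF3g1 (limma adjusted p = 0.0534) to -0.06 ± 0.08 SE for eIF3l (adjusted p = 0.711). The core subunits differed in size of estimate, -0.28 for eIF3a, -0.26 for eIF3c and -0.12 for eIF3b, and their 95% intervals overlapped. For eIF3e the interval of -0.28 to 0.06 leaves out a change as large as that of eIF3m. A test of eIF3m against the other subunits was not made.

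Within the cap complex, the helicase eIF4A (CG9075, chromosome 2L, 5981759 to 5985572) was lower. It held 1365, 1445 and 1673 normalized reads (lowest, median, highest) in the libraries labelled cabut RNAi and 2059, 1721, 2012 and 1848 in controls at rising sucrose. The lowest control, at 25 percent sucrose, was still above all 8 libraries labelled cabut RNAi, and the log2 fold change was -0.38 ± 0.07 SE (limma adjusted p = 7.46e-04), or -0.12 (adjusted p = 0.26) after quantile normalization. The cap-binding protein eIF4E1 (CG4035) held 230.1, 243 and 286 under the cabut RNAi label and 284, 224, 274 and 286 in controls. Those groups overlapped, and the log2 fold change was -0.10 ± 0.09 SE (limma adjusted p = 0.53) with a 95% interval of -0.28 to 0.09.

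The scaffold eIF4G1, which bridges eIF4E and eIF4A, had a log2 fold change of -0.01 ± 0.12 SE (limma adjusted p = 0.98), and eIF4EHP, a cap-binding protein that represses translation, one of 0.00 ± 0.13 SE (adjusted p = 0.993). For the related scaffold eIF4G2, known for its part in fly spermatogenesis, the libraries labelled cabut RNAi held 27.8, 35.6 and 46.4 normalized reads and the controls 46.1, 44.5, 49.6 and 47.0. A single library labelled cabut RNAi, at 25 percent sucrose, reached the controls, and the estimate of -0.40 ± 0.14 SE missed the threshold (limma adjusted p = 0.0738). The helpers of eIF4A, eIF4B at -0.16 and eIF4H1 at -0.26, did not pass either.

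For the ternary complex, eIF2beta (CG4153) held 117, 126 and 137 normalized reads (lowest, median, highest) in the libraries labelled cabut RNAi, against 160.1, 143, 159 and 148 in controls at rising sucrose. For eIF2alpha (CG9946), the subunit that stress kinases phosphorylate, they held 66.7, 74.1 and 78.0, against 93.5, 85.6, 79.3 and 105. Neither gene's groups overlapped, yet neither passed the test over all genes, at log2 -0.27 ± 0.09 SE (limma adjusted p = 0.0585) and -0.29 ± 0.11 SE (adjusted p = 0.0747). On the opposite strand eIF2alpha overlaps rngo, with mean normalized reads of 64.3 under the cabut RNAi label and 75.7 in controls. There eIF2beta overlaps ver, at 5.26 and 8.12. For the GTP-binding subunit eIF2gamma the estimate was -0.36 ± 0.14 SE (adjusted p = 0.11); its row carries the CG number CG6476 that it shared with Su(var)3-9, so reads of the pair may be mixed.

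The 5 subunits of eIF2B, the factor that exchanges GDP for GTP on eIF2, were among the members with the widest intervals, with means of 17.2 to 43.6 normalized reads. Their log2 fold changes ran from -0.33 ± 0.21 SE for eIF2Bdelta to 0.25 ± 0.17 SE for eIF2Bbeta (limma adjusted p = 0.376), 3 above 0 and 2 below. In the annotation all 5 overlap another gene on the opposite strand, and whether counting used strand is not given. Normalized reads of CG2680, which overlaps eIF2Bbeta, averaged 31.0 under the cabut RNAi label and 18.8 in controls, with the groups separate. For the catalytic subunit eIF2Bepsilon the 95% interval ran from -0.42 to 0.58, which includes 0 and a difference the size of that of eEF5.

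Of the factors at the start codon, eIF2A (CG7414, chromosome 3L, 21817919 to 21820958), which in mammals can bring initiator tRNA to the ribosome without eIF2, had the largest fold change of any tested member. It held 121, 158 and 172 normalized reads (lowest, median, highest) in the libraries labelled cabut RNAi and 323, 212, 296 and 235 in controls at rising sucrose. The groups were separate although the controls spread widely, and the fold change was 1.74-fold lower (log2 -0.80 ± 0.11 SE, limma adjusted p = 3.67e-05). CG32448, which overlaps its exons on the opposite strand, had 53.3 ± 10.7 normalized reads with the cabut RNAi label and 43.3 ± 10.4 in controls (SD, n = 8 and 4).

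The factor eIF1 (CG17737), which guards start codon choice and had the highest mean of its group, held 251, 307 and 337 under the cabut RNAi label and 265, 269, 245 and 291 in controls. The ranges overlapped, and the log2 fold change was 0.16 ± 0.09 SE (limma adjusted p = 0.234). The estimates for eIF1A (-0.08), eIF5 (0.05) and eIF5B (0.02) lay near 0, and those for eIF2D (-0.43 ± 0.20 SE) and the anti-association factor eIF6 (-0.36 ± 0.20 SE) were larger and imprecise; none of the 5 passed.

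**Figure D3:**
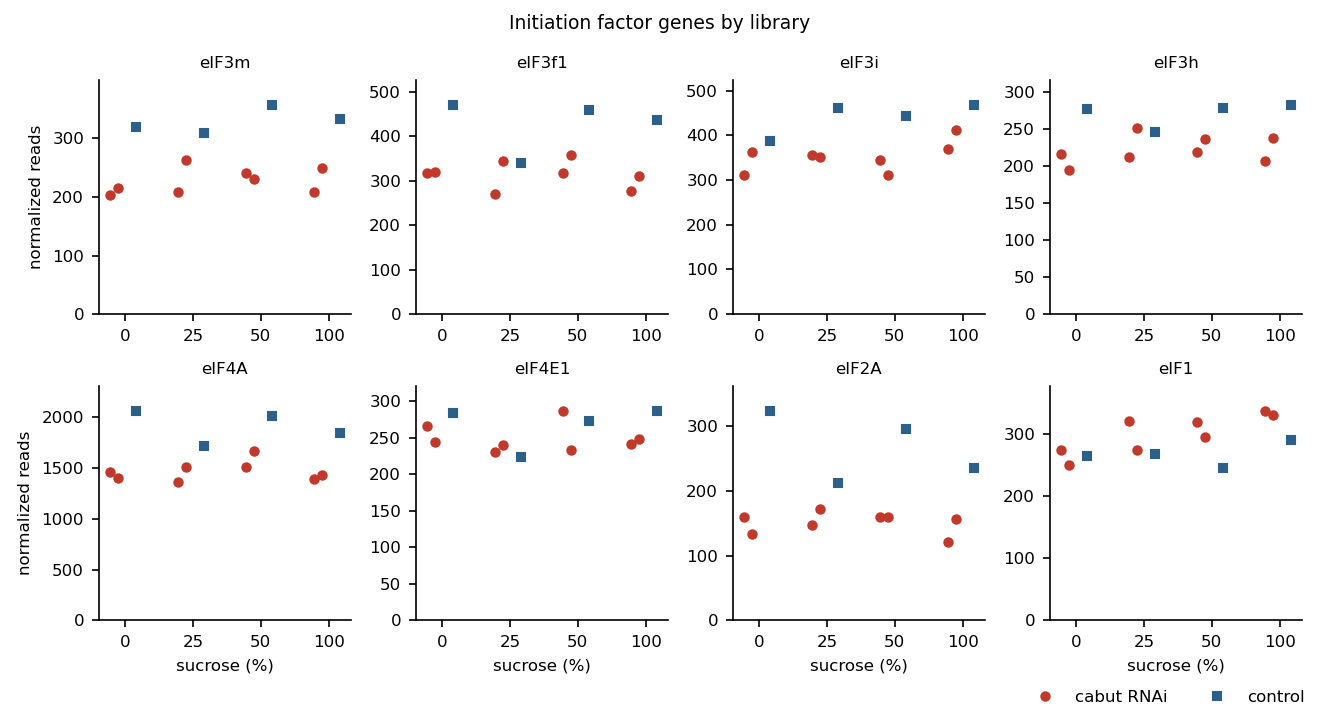
Normalized reads (vertical axes, from 0) of 8 initiation factor genes at 0, 25, 50 and 100 percent sucrose (horizontal axes), with circles for single libraries labelled cabut RNAi and squares for single control libraries. For eIF3m, eIF4A and eIF2A all circles lie below all squares; for eIF4E1 and eIF1, which did not pass the test, they mix.

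As a share of each library, the 8 elongation factor genes took 1.44 to 1.67 percent of reads in the libraries labelled cabut RNAi, against 1.81 to 2.08 percent in controls, with no overlap. Most of this was eEF1alpha1 alone, at 0.839 to 1.01 percent and 1.07 to 1.32 percent. The 44 initiation factor genes took 0.63 to 0.674 percent, against 0.628 to 0.732 percent, with overlap. Cytosolic ribosomal protein genes, whose products form the ribosome that these factors serve, took 20.6 to 22.8 percent, against 26.8 to 28.8 percent. Of 85 tested ribosomal protein genes 79 were lower and 0 higher, with a median log2 fold change of -0.54. The fall of eEF1beta was exceeded by 7 of the 85 and that of eEF1alpha1 by 22 of the 85. By level, 8 of the 11 tested members with a mean of at least 300 normalized reads were called lower, beside 40.7 percent of all tested genes at that level, with a median log2 fold change of -0.38 and a median SE of 0.08. Between 100 and 300 it was 4 of 17, beside 15.1 percent, with a median of -0.26 and a median SE of 0.10. Under 100 it was 0 of 14, beside 5.11 percent, with a median of -0.19 and a median SE of 0.17.

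Marker genes of cell types were summed in each library. The 5 fat body markers summed to 24344 to 57561 normalized reads with the cabut RNAi label, against 51513 to 73497 in controls, the 4 neuron markers to 118 to 177 and 171 to 228, and the 2 hemocyte markers to 70.1 to 110 and 55.1 to 62.7. For the 4 glia markers the sums were 1778 to 2183 and 1711 to 1822, for the 4 muscle markers 721 to 1219 and 640 to 790, and for the 9 photoreceptor markers 37855 to 43900 and 40792 to 45478. None of these markers was at 0, but elav, brp, Act88F and NimC1 had means under 10. Their part in the differences of the translation factors was not tested. Without the control at 100 percent sucrose, the library with vas, nanos and osk reads, 11 of the 12 calls were kept, all but eIF3h.

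**Figure D4:**
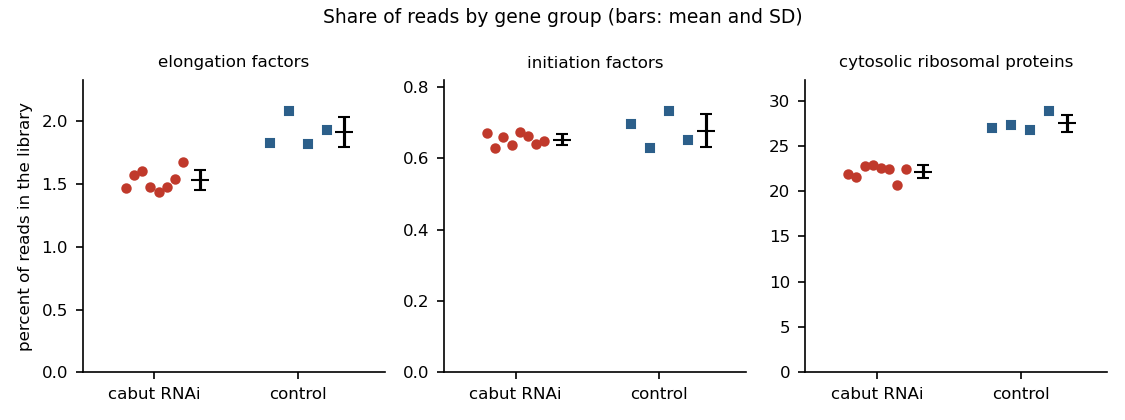
Percent of a library's reads (vertical axes, from 0) taken by the elongation factor genes, the initiation factor genes and the cytosolic ribosomal protein genes; points are libraries, cabut RNAi label (n = 8) left of control (n = 4), with mean and SD. Elongation factors and ribosomal proteins are separate between labels, while initiation factors at 0.63 to 0.674 percent lie within the control range of 0.628 to 0.732 percent. Most of the elongation factor share is eEF1alpha1.

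The second comparison asked whether sucrose at 25 to 100 percent changed these RNAs relative to 0 percent, over both labels. No member was called by limma (0 of 42), while 2.15 percent of all tested genes were, 0.671 percent higher and 1.48 percent lower. At an unadjusted limma p under 0.05 there were 2 of 42 members, beside 11 percent of all tested genes. On the recovered reads edgeR and DESeq2 also called 0, with 1 and 0 members at an unadjusted p under 0.05. The median log2 fold change of the members was 0.07, beside 0.01 over all tested genes, and for 36 of the 42 the 95% interval lay within 1.5-fold either way. For eEF1alpha1 it was 0.09 ± 0.08 SE, with a 95% interval of -0.07 to 0.26; after quantile normalization the value was -0.31 (adjusted p = 0.0165).

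No role's largest estimate passed the test over all genes. In elongation this was eEF1alpha2 (0.13 ± 0.08 SE), in eIF3 the core subunit eIF3a (0.32 ± 0.15 SE, unadjusted p = 0.0492, limma adjusted p = 0.45), in the cap complex eIF4H1 (0.13 ± 0.11 SE) and among the start codon factors eIF5B (-0.38 ± 0.22 SE). The smallest adjusted p belonged to eIF2Balpha, a regulatory subunit of eIF2B (-0.46 ± 0.19 SE, 95% interval -0.86 to -0.06, unadjusted p = 0.0259, limma adjusted p = 0.339). The libraries labelled cabut RNAi held 36.4 and 30.4 normalized reads of it at 0 percent sucrose, 25.5 and 29.1 at 25 percent, 23.6 and 29.6 at 50 percent, and 34.2 and 23.0 at 100 percent. The controls held 43.5, 21.0, 19.8 and 33.6 in that order, with the highest value at 0 percent under both labels.

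**Figure D5:**
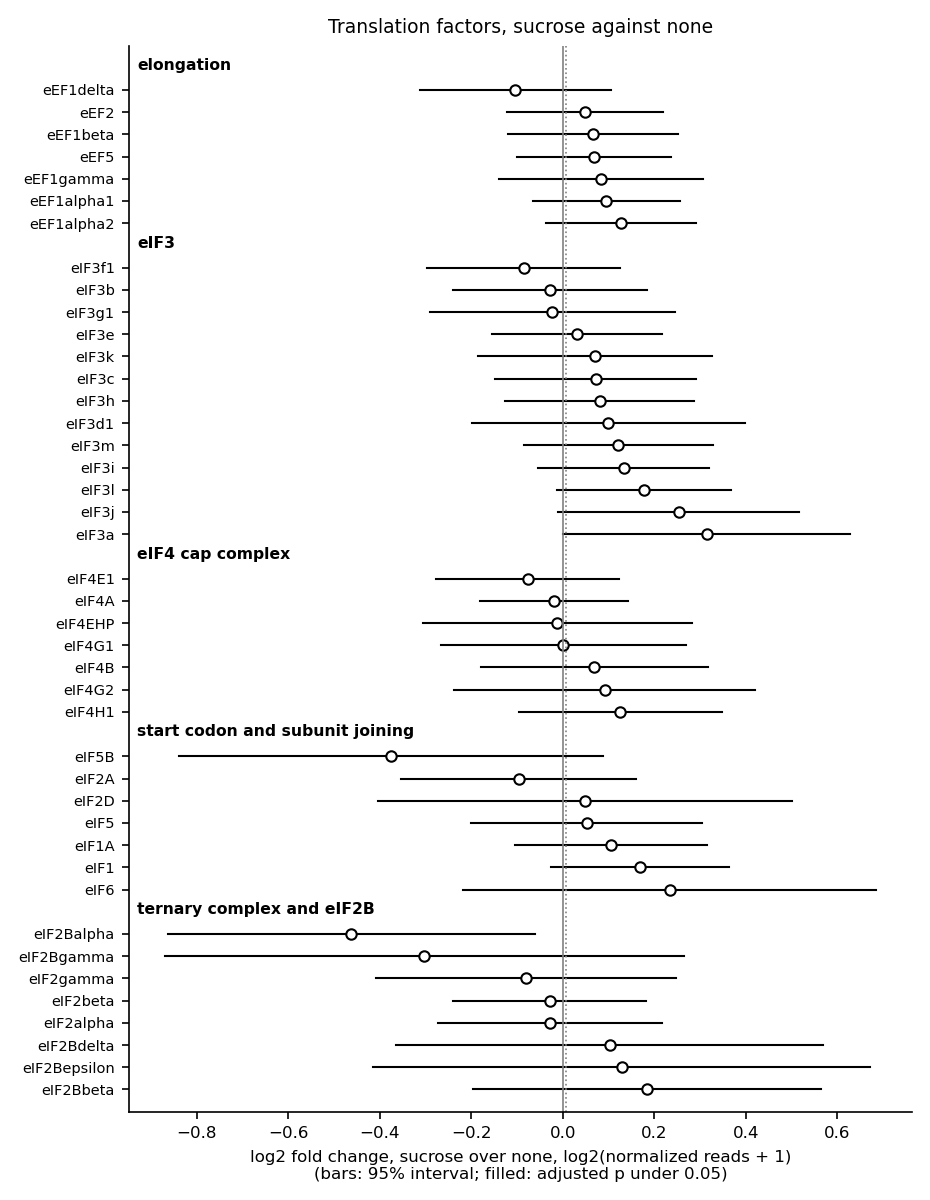
Log2 fold change of the 42 tested translation factors with sucrose (25, 50 and 100 percent, 9 libraries) over none (3 libraries), grouped by role; points are limma estimates on log2(normalized reads + 1), bars 95% intervals, and the dotted line the median of all tested genes. No point is filled, since no member reached an adjusted p under 0.05; the intervals are widest for eIF2Bgamma and eIF2Bepsilon.

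The third comparison asked whether the response to sucrose differed between labels. Again limma called 0 of 42 members (4 at an unadjusted p under 0.05; smallest adjusted p 0.277), against 0.229 percent of all tested genes (0.152 percent higher, 0.0762 percent lower), and edgeR and DESeq2 called 0, with 4 and 0 at an unadjusted p under 0.05. Of all tested genes 10.5 percent had an unadjusted limma p under 0.05, so 4 of 42 members is no more than that share. The 4 in limma were eIF3k (difference of log2 responses, cabut RNAi minus control, 0.63 ± 0.17 SE), eIF3g1 (0.57 ± 0.24 SE), eIF2Bgamma (1.25 ± 0.42 SE) and eIF2Bepsilon (-1.35 ± 0.46 SE). The last 2 rest on few reads, 228 of eIF2Bgamma and 280 of eIF2Bepsilon over all 12 libraries. Without sucrose eIF2Bepsilon held 20.4 and 25.8 normalized reads in libraries labelled cabut RNAi and 10.2 in the control. For 15 of the 42 members the 95% interval lay within 1.5-fold either way.

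Genes that act on these factors were read beside them. To set beside their counts, 8.7 percent of all tested genes were called lower. The share was 40.7 percent among genes with a mean of at least 300 normalized reads and 5.11 percent under 100. Of 18 translation regulators tested, 2 were lower in the libraries labelled cabut RNAi, 0 were higher and the median was 0.05: pAbp, the poly(A)-binding protein that contacts eIF4G (log2 -0.39 ± 0.09 SE, limma adjusted p = 0.00402), and Lk6, the kinase of eIF4E (-0.24 ± 0.08 SE, adjusted p = 0.0449). The Lk6 call was lost in 11 of the 12 fits that left out 1 library. Of 7 termination and recycling genes 1 was lower, pix, the fly ABCE1 that splits ribosomes after release (-0.41 ± 0.09 SE, limma adjusted p = 0.00266), and of 5 tested genes that modify eEF5 and eEF2 1 was lower, nero, the hydroxylase that completes hypusine on eEF5 (-0.73 ± 0.19 SE, adjusted p = 0.0126). The nero call was lost without the control at 0 percent sucrose (adjusted p = 0.097) or that at 100 percent (0.0954). By level, pAbp, Lk6 and pix had means of 816, 629 and 321 normalized reads, and nero one of 23.1.

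No gene of these 3 lists was called for sucrose, and 1 was called for the difference of responses. This was Thor, the fly 4E-BP, which binds eIF4E and blocks its contact with eIF4G and which is known as a target of FOXO and TOR. In the libraries labelled cabut RNAi Thor held 391 and 315 normalized reads at 0 percent sucrose, 491 and 489.9 at 25 percent, 504 and 580.3 at 50 percent, and 574 and 513 at 100 percent. In controls it held 804, 416, 548 and 454 in that order. All 6 libraries with sucrose were thus above both without it under the cabut RNAi label, and all 3 below it in controls, and the difference of log2 responses was 1.35 ± 0.18 SE (limma adjusted p = 0.0107). It rests on a single control without sucrose, and was lost without replicate 2 of the cabut RNAi label at 0 percent (1.20, adjusted p = 0.0624) and without the intensity trend in limma (adjusted p = 0.183).

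The 10 untested members were eIF3d2, eIF3f2, eIF3g2, eIF4E3, eIF4E4, eIF4E5, eIF4E6, eIF4E7, eIF4H2 and eEFSec, paralogs of other members apart from eEFSec, the elongation factor for selenocysteine. No reads at all were counted for 4 of them, and the highest mean was 2.18 normalized reads for eEFSec. The tested members nearest the filter were eIF2Bgamma at 17.2 and eIF2Bepsilon at 19.5. Since 3 reads correspond to between 1.5 and 6.71 normalized reads in a library, a level under that could not be read for the untested members.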

How the data were processed

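The deposited table gave 21081 transcript rows and 12 libraries; the authors deposited it as a normalized signal. The submitters' processing notes list Bowtie, TopHat and dm3, with no versions; how reads were counted, with or without strand, and then normalized is not given in the sources used here. All values (100 percent, tolerance 0.01) were whole multiples of 1 step within a library, so dividing by that step recovered reads. Of 14010 CG numbers, 12914 matched a current one in the gene tables used for names and 622 an older one. Rows for eIF4AIII carry a gene now named by its CG number and were not members. In the annotation 20 tested members overlap exons of another gene, 15 on the opposite strand.

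Genes with a mean of at least 10 were fitted with limma 3.58.1 in R 4.3.3, with an intensity trend, on log2(value + 1), label and sucrose concentration together over 12 libraries, with Benjamini-Hochberg adjustment over 6560 genes and a threshold of 0.05. The difference of sucrose responses used 8 group means, so single controls were assumed to vary like the pairs labelled cabut RNAi. Count tests on those reads (edgeR 4.0.16, DESeq2 1.42.0) were alternatives, and limma and edgeR were tested on simulated data. Members, gene lists and named genes (in each role those called, the highest mean and the largest fold change per comparison, and paralogs) were chosen with earlier results of these data known.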

Additional observations from a re-analysis of the deposited data

Results flagged for a closer look

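A single library stood apart from the rest of its label for 5 of the 84 groups of libraries examined (42 members under each label); chance marks about 1 in 20. The control at 0 percent sucrose was low for eIF3a, at 58.9 normalized reads. For eIF3c the control at 50 percent sucrose was low, at 141, and for eIF3h the control at 25 percent was low, at 246. Among the libraries labelled cabut RNAi, replicate 1 at 100 percent sucrose was high for eIF3d1, at 187, and replicate 1 at 0 percent was low for eIF3j, at 69.3. All 5 are eIF3 subunits, and of these eIF3h is called lower under the cabut RNAi label, with or without that control. Leaving out a low control favours a lower call, and the eIF3h call was lost in most fits that left out 1 library.

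The response of Thor, the 4E-BP gene, to sucrose differed between labels by 1.35 on the log2 scale, up with sucrose under the cabut RNAi label and down in controls. It was the only called gene among the members and the lists of translation regulators, termination and recycling genes, modifying enzymes and ribosomal proteins in that comparison. The control side without sucrose is 1 library.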

How the results depend on the processing

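The label count stayed between 8 and 18 members in all alternatives tried: 12 with pseudocounts of 0.5 or 5, no filter, median-of-ratios scaling, summed transcript rows or no sucrose term, 18 with a minimum mean of 50, 10 after quantile normalization or without the limma trend, 13 with robust limma, 11 with edgeR, 11 with DESeq2, and 10 to 15 when 1 library was left out. The minimum mean of 50 left out members with lower means, such as eIF4G2 at 39.4 normalized reads. The share of all tested genes called in each alternative is not given here. These counts therefore do not show whether the members moved apart from the other genes. No called member changed direction. Chosen after seeing the data, the comparison with only the libraries labelled cabut RNAi and numbered 1 gave 13, and with those numbered 2 gave 8; there eIF3f1, eIF3h, eIF3i and eEF1delta were lost. For sucrose, quantile normalization gave 1 member, eEF1alpha1, at -0.31 where the value was otherwise above 0; the cause was not tested. With a replicate block the counts were 12, 0 and 0 for label, sucrose and the difference of responses. Differences between replicates 1 and 2 correlated weakly across concentrations (from -0.11 to 0.14). Whether libraries with the same replicate number shared a batch was not tested. The difference of responses cannot be estimated without the control at 0 percent sucrose. Standard errors were largest for members with few reads (median 0.17 under a mean of 100 normalized reads, 0.08 at 300 or more), which limits how small a difference can be read there.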
